A study of Mus musculus with 2 samples.

Results

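Cycling valve interstitial cells are the small set of matrix-making cells of the mitral valve that carry the transcripts of dividing cells. They numbered 145 of 15324 interstitial cells and of 18630 barcodes kept in all, 68 in the Fbn1 +/+ library and 77 in the Fbn1 C1039G/+ library. Members were chosen by their own transcripts in 2 steps. An interstitial cell had at least 1% of its unique molecular identifiers (UMIs, the counted RNA molecules) from Dcn, Col1a1, Col1a2 and Col3a1. A member was an interstitial cell with at least 5 summed UMIs of Top2a, Mki67, Cenpf and Birc5 and fewer than 5 UMIs of the macrophage genes C1qa, C1qb and C1qc. These 11 genes chose the cells, so their levels are given as a description and carry no comparison.

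The 2 libraries hold cells of whole mitral leaflets, anterior and posterior, from C57BL/6J mice of 1 month, with no treatment stated. The Fbn1 +/+ library pools 5 mice and the Fbn1 C1039G/+ library pools 3, and each was made once with the 10x Genomics Chromium 3′ v3.1 kit after enzyme digestion. Fibrillin-1, the product of Fbn1, builds the microfibrils of the extracellular matrix. The C1039G allele exchanges a cysteine in it, and it is a germline allele, present in 1 copy in all cells of the Fbn1 C1039G/+ mice. It is a mouse model of Marfan syndrome. The labels give neither the sex of the mice nor which mouse a cell came from.

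Interstitial cells are the resident fibroblasts of heart valve leaflets, where they lay down and remodel collagen, proteoglycan and elastic fibres. A dividing cell copies its DNA in S phase, with replication licensing factors, nucleotide synthesis enzymes and new histones, then passes through G2 and separates its chromosomes in mitosis (M) with cyclin B, Cdk1, kinesins and the spindle machinery. Genes of S phase are known to be switched on mainly by E2F factors, and genes of G2 and mitosis by the MuvB complex with B-Myb and FoxM1, which reach their promoters through CCAAT boxes and a short element called the CHR (cell cycle genes homology region).

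The promoters of the 4 genes that chose these cells and of some further cell cycle genes are shown. These further genes were not high in every member, and Hells had a UMI in 23 of 68 and 25 of 77. Each stretch is the last 150 bases before the annotated start, read 5′ to 3′ on the strand of the gene, from RefSeq sequence of build GRCm38.p6. Capitals mark matches to the CCAAT box, to the core of the CHR element, which is spelled TTTGAA, or to the E2F-type motifs TTTCCCGC, TTTCGCGC, TTTGCCGC and TTTGGCGC, on either strand. A stretch that matches E2F letters on both strands is capitalised as 1 run. The first 4 genes below chose the cells, Ube2c and Cdk1 belong to the G2/M list, and Mcm6 and Hells belong to the S phase list.
Top2a (chr11:99024190-99024339, minus strand): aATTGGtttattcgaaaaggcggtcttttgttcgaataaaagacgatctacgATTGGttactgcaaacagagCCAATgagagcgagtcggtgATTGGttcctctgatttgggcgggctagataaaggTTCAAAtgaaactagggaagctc
Mki67 (chr7:135716380-135716529, minus strand): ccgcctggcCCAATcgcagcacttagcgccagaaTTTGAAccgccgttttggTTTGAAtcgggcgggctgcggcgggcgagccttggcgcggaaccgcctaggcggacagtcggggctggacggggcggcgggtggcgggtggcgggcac
Cenpf (chr1:189688087-189688236, minus strand): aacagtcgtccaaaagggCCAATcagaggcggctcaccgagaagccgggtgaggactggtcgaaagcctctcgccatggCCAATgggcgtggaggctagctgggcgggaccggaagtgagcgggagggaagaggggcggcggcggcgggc
Birc5 (chr11:117849087-117849236, plus strand): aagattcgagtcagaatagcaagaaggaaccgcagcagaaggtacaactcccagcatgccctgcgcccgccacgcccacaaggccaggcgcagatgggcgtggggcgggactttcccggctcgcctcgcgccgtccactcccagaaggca
Ube2c (chr2:164769779-164769928, plus strand): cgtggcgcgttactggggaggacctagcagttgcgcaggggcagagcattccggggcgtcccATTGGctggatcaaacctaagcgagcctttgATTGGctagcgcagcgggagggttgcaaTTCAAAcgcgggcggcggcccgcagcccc
Cdk1 (chr10:69352913-69353062, minus strand): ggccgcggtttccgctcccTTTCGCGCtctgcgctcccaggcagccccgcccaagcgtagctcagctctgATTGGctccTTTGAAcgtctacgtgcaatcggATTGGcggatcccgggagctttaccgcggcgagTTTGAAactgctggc
Mcm6 (chr1:128359706-128359855, minus strand): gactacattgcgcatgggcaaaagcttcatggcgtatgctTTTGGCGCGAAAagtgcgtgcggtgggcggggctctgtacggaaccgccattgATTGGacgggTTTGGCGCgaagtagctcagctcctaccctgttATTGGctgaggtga
Hells (chr19:38930840-38930989, plus strand): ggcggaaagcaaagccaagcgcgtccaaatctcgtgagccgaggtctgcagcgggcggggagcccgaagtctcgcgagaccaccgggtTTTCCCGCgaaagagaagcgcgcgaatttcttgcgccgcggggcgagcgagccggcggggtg
Matches were counted over 250 bases before to 50 after the start, in 1 window per gene. Of 26742 RefSeq promoters, 37.9% held a CCAAT box, 17.9% the CHR core and 2.33% an E2F-type motif. Of the G2/M list with the 4 choosing genes, 82 of 106 genes had a window, of which 61 (74.4%) held a CCAAT box, 52 (63.4%) the CHR core and 42 (51.2%) both, against 7.10% of all promoters with both. E2F-type letters were in 6 of these 82 windows (7.32%). In the S phase list, 42 of 57 genes had a window, and the order differed. There 15 (35.7%) held E2F-type letters, 6 (14.3%) the CHR core and 26 (61.9%) a CCAAT box. Replication-dependent histone genes had a window for 23 of 65, and 22 of these (95.7%) held a CCAAT box. The CHR core was in 13 of them (56.5%), each with a CCAAT box too, a share close to that of the G2/M list. E2F-type letters were in 4 (17.4%). For collagen genes, 7 of 19 windows (36.8%) held a CCAAT box and 0 held E2F-type letters. The windows were matched by letters alone, so these shares describe sequence and not binding.

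Some members also held RNA of another cell type, and this bears on several results below. Cells with at least 5 summed endothelial, T cell, melanocyte or cardiomyocyte marker UMIs, 10 macrophage, 20 dendritic cell or 2 Ptprc UMIs are called mixed cells here, a definition set after the values were seen. They were 12 of 68 Fbn1 +/+ members (17.6%, exact 95% interval 9.46 to 28.8) and 13 of 77 Fbn1 C1039G/+ members (16.9%, 9.31 to 27.1), against 5.17% and 5.63% of the interstitial cells with none of the 4 cycle genes. Predicted doublets made up 17.6% and 18.2% of members and 6.99% and 7.11% of those cells. The limits for mixed cells are fixed UMI counts, and members were deeper. Median depth was 20083 and 19582 UMIs in members against 9954.5 and 9925 in the comparison cells defined below. The part of depth in these shares was not tested. The kind of marker differed between the libraries. At least 5 endothelial UMIs were found in 0 of 68 Fbn1 +/+ members, exact 95% interval 0 to 5.28, and in 8 of 77 Fbn1 C1039G/+ members (10.4%, 4.59 to 19.4). At least 20 dendritic cell marker UMIs were found in 10 (14.7%) and 4 (5.19%) members. No member had 5 cardiomyocyte marker UMIs. Main results are therefore given for all members and without mixed cells, in both the members and the cells they are compared with. All intervals cover counting error only, because each genotype had 1 library.

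The libraries were alike in depth, with 100969482 and 103663375 UMIs. The comparison cells are interstitial cells with a 4-gene sum of 0 and fewer than 5 C1q UMIs, called sum-0 cells, 7028 in the Fbn1 +/+ and 7075 in the Fbn1 C1039G/+ library. Members were deeper than these cells, with a median of 20083 UMIs (9231 to 48089) in the Fbn1 +/+ and 19582 (1519 to 65891) in the Fbn1 C1039G/+ library, against 9954.5 and 9925. The 2 libraries shared 17 barcodes, of which 0 were members.

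Interstitial markers that did not choose the cells were present in members. Of the 4 measured, 0 were counted as higher and 1 as lower by the rule given below. The lower gene was Lum, whose values are given with the proteoglycans. Vim, the intermediate filament of mesenchymal cells, stood at 9194 CPM (UMIs scaled to a fixed total of each group of cells) in Fbn1 +/+ members against 9824 in sum-0 cells and at 9963 against 9819 in the Fbn1 C1039G/+ library. Postn, periostin, a matrix protein of valve fibroblasts, was at 2452 against 1655 and 3331 against 2311, and the fibroblast receptor Pdgfra at 94.1 against 116 and 130 against 86.7. The endothelial marker list summed to 4.81 CPM in Fbn1 +/+ and 346 in Fbn1 C1039G/+ members, and to 6.22 and 9.22 without mixed cells. This list is part of the definition of mixed cells, so the fall follows from their removal.

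The 4 choosing genes encode DNA topoisomerase II alpha (Top2a; mm10 chromosome 11, 98992943 to 99024189), the proliferation antigen Ki-67 (Mki67; chromosome 7, 135689784 to 135716361), the kinetochore protein centromere protein F (Cenpf; chromosome 1, 189640606 to 189688086) and survivin (Birc5; chromosome 11, 117849251 to 117855743). Their summed level in members ran from 5 to 182 UMIs with a median of 56 in the Fbn1 +/+ library, and from 5 to 191 with a median of 31 in the Fbn1 C1039G/+ library. Top2a had a median of 21.5 and 10 UMIs and was detected in 61 of 68 and 64 of 77 members. Mki67 had a median of 9.5 and 7 UMIs and was detected in 67 and 73. Cenpf had a median of 9 and 5 UMIs and was detected in 63 and 60, and Birc5 had a median of 11 and 9 and was detected in 62 and 71. Each of the 4 genes thus missed some members, so no 1 gene alone would have kept them all. Some members were chosen by Cenpf alone, with 5 UMIs in an Fbn1 +/+ cell and 6 and 17 in Fbn1 C1039G/+ cells. The cell with 17 had 841 CPM of the G2/M list, below the per-cell sum-0 median of 1777 in its library.

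Few interstitial cells lay near the threshold of 5. Just outside it, a sum of 3 was held by 5 Fbn1 +/+ and 10 Fbn1 C1039G/+ cells, and a sum of 4 by 1 and 9. Just inside, a sum of 5 was held by 3 and 5 cells, a sum of 6 by 1 and 4, and a sum of 7 by 2 and 5. Sums of 50 to 99 were held by 16 and 14 cells, and sums of 100 or more by 20 and 19.

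**Figure D1:**
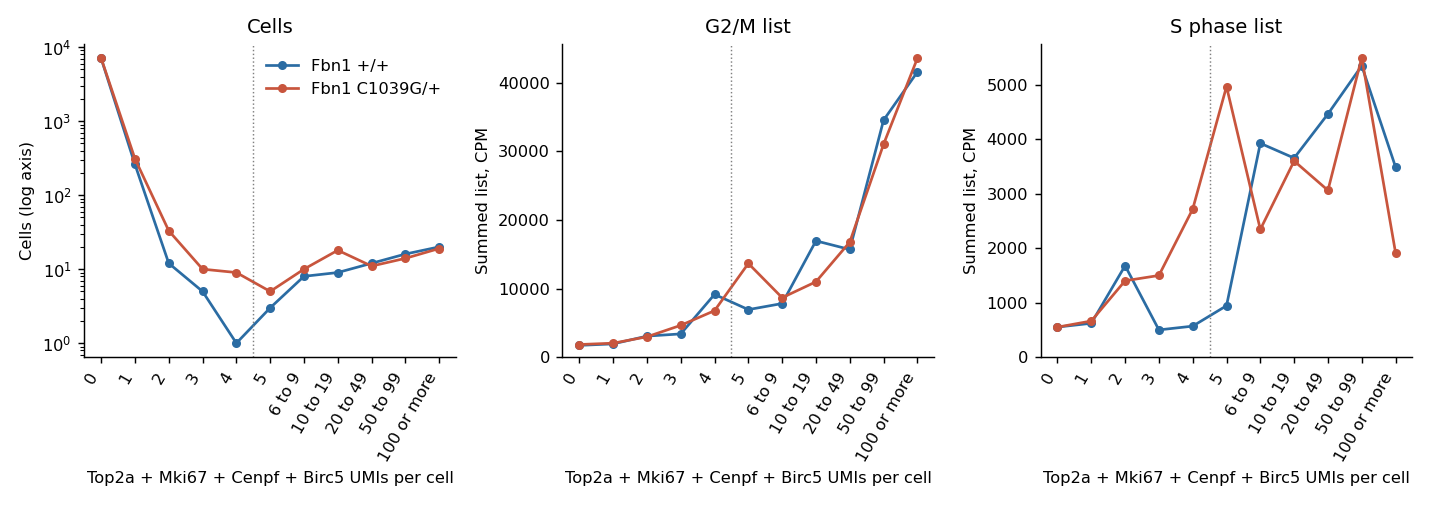
Interstitial cells of each library by their summed UMIs of Top2a, Mki67, Cenpf and Birc5 (x axis), with the number of cells on a log axis (left) and the summed level of the G2/M list (middle) and of the S phase list (right) in CPM. Points are classes of cells, colours are the libraries and the dotted line is the threshold of 5. G2/M levels climb to 41568 and 43555 CPM in the top class, where the S phase level is below that of the class before it.

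The mitotic programme stood highest in cells with the highest 4-gene sums, and the S phase programme did not. The G2/M list is 96 measured genes of chromosome condensation, spindle and cytokinesis, and its summed level is given as CPM. It stood at 1753 CPM in Fbn1 +/+ and 1879 in Fbn1 C1039G/+ sum-0 cells, at 34549 and 31046 in members with sums of 50 to 99, and at 41568 and 43555 at 100 or more. The summed S phase list, 57 genes of replication licensing, DNA synthesis and nucleotide supply, stood at 557 and 555 CPM in sum-0 cells and at 5349 and 5499 in the class of 50 to 99. In the class of 100 or more it was lower, at 3493 and 1920 CPM. The choosing genes are themselves known to peak in G2 and mitosis, so the G2/M level is no independent measure of the choice.

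Ube2c, a ubiquitin-conjugating enzyme of the anaphase-promoting complex (chromosome 2, 164769898 to 164778822), was the marker of cycling cells that did not enter the choice. It was detected in 48 of 68 Fbn1 +/+ members (70.6%) and 55 of 77 Fbn1 C1039G/+ members (71.4%), against 0.612% and 0.763% of sum-0 cells. With every cell thinned to 5000 UMIs, and shallower cells left out (0 and 2 members, 168 and 517 sum-0 cells), the shares were 67.6% and 57.3% of members against 0.204% and 0.412%. Its level was 885 CPM in Fbn1 +/+ members against 0.59 in sum-0 cells, and 791 against 0.74 in the Fbn1 C1039G/+ library. Among single Fbn1 +/+ members it ran from 0 through a median of 480 to 3771 CPM, and among Fbn1 C1039G/+ members from 0 through 203 to 3292. No Ube2c UMI was found in 20 and 22 members, among them every Fbn1 +/+ member with a sum under 10.

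Members fell along 2 arms when their S phase and G2/M levels were set against each other. A member's S phase list made up a median of 8.70% (2.08 to 52.0) of its UMIs from both lists in the Fbn1 +/+ library and 7.22% (2.10 to 55.7) in the Fbn1 C1039G/+ library. It passed 50% in 2 members of each library, and it was below 10% in 38 and 48. With at least 0.4% of a cell's UMIs from the S phase list as a cut, set after the values were seen, 26 Fbn1 +/+ members (38.2%) and 25 Fbn1 C1039G/+ members (32.5%) were high in S phase genes. Of these, 8 and 15 had under 2% of UMIs from the G2/M list and 18 and 10 had more. Members low in S phase genes numbered 18 and 21 with under 2% G2/M and 24 and 31 with more. Between 0.3% and 0.5% lay 12 and 6 members, so the cut divides a range and not 2 types.

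**Figure D2:**
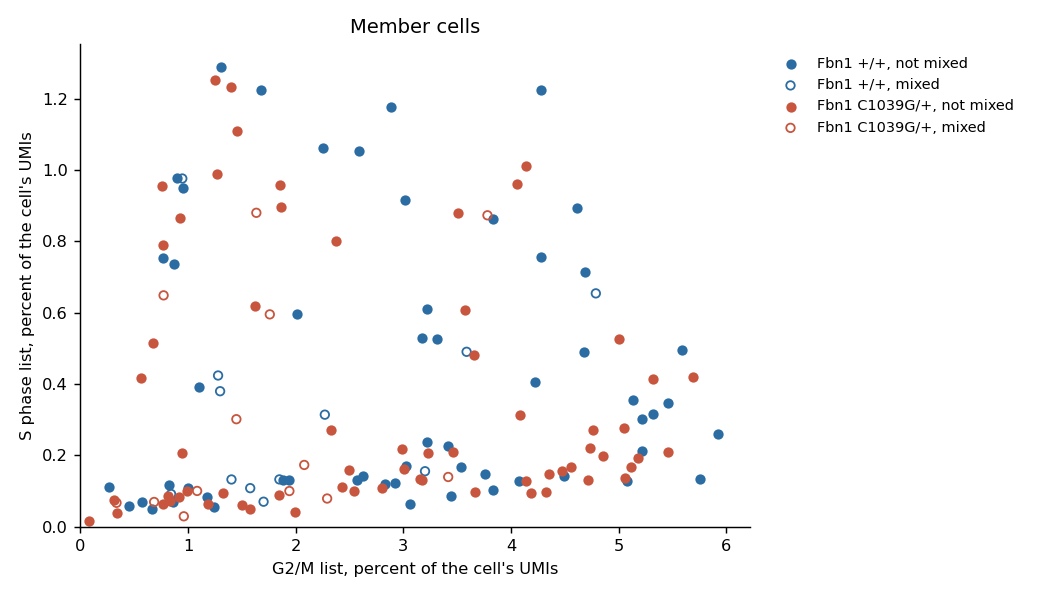
Each of the 145 members by the percent of its UMIs from the G2/M list (x axis) and from the S phase list (y axis), coloured by library, with mixed cells as open circles. A group of cells high in S phase genes stands above a band of cells with little S phase RNA that reaches across the whole G2/M range, and both libraries have cells in both.

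S phase genes outside the threshold showed where the choice of members stops. A cell below the threshold was counted as rich in S phase genes when the list held at least 0.205% of its UMIs, the median of all members. There were 25 such cells of 7306 in the Fbn1 +/+ library (0.342%, 0.222 to 0.505) and 61 of 7437 in the Fbn1 C1039G/+ library (0.820%, 0.628 to 1.05). Among cells with at least 5000 UMIs the counts were 23 of 7134 (0.322%, 0.204 to 0.483) and 45 of 6901 (0.652%, 0.476 to 0.872). Of all these cells, 19 and 45 had a 4-gene sum of 0 and so stand among the comparison cells, and 6 and 10 were mixed cells. Cells with sums of 2 to 4 were also more frequent in the Fbn1 C1039G/+ library, 52 of 7514 (0.692%, 0.517 to 0.907) against 18 of 7374 (0.244%, 0.145 to 0.386). These intervals did not overlap. The cells' median depth was 14081.5 UMIs in the Fbn1 +/+ and 11226 in the Fbn1 C1039G/+ library.

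The share of interstitial cells that were members differed between the libraries by less than counting error. It was 0.900% (68 of 7556, 0.700 to 1.14) in the Fbn1 +/+ and 0.991% (77 of 7768, 0.783 to 1.24) in the Fbn1 C1039G/+ library, a difference of 0.0913 points with a Newcombe 95% interval from -0.219 to 0.402. Without mixed cells the shares were 0.803% (56 of 6976) and 0.904% (64 of 7076). Resident macrophages of the same valves, chosen by C1q with under 1% of UMIs from the collagen and decorin genes, had larger cycling shares by the same 4-gene threshold. These were 89 of 821 (10.8%, 8.80 to 13.2) and 109 of 901 (12.1%), and their median S phase share of cycle UMIs was 15.1% and 14.1%.

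Each pool held cells of both sexes, told apart per cell by Xist and Y-linked transcripts, and the member share differed between the libraries in female cells. In female interstitial cells it was 15 of 3495 (0.429%, 0.240 to 0.707) in the Fbn1 +/+ and 37 of 3731 (0.992%, 0.699 to 1.36) in the Fbn1 C1039G/+ library, a difference of 0.563 points (0.174 to 0.971). In male interstitial cells it was 35 of 3130 (1.12%, 0.780 to 1.55) and 27 of 2920 (0.925%), a difference of -0.194 points (-0.714 to 0.328). Without mixed cells the differences were 0.591 (0.194 to 1.01) and -0.223 points (-0.749 to 0.301). A further 18 of 931 and 13 of 1117 interstitial cells that could not be assigned a sex were members. With 3 mice in the Fbn1 C1039G/+ pool and both sexes present, 1 sex came from a single mouse, so sex, mouse and genotype cannot be told apart here.

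**Figure D3:**
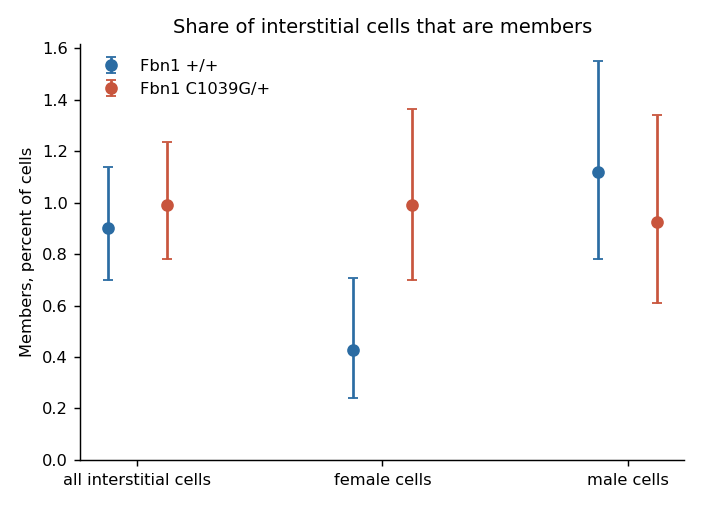
Members as a percent of all, female and male interstitial cells (x axis) in each library (colour), with exact 95% intervals of counting error. The Fbn1 +/+ female share, 0.429%, is the lowest of the 6 points, and the other points lie between 0.900% and 1.12%.

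In genes that did not choose the cells, members were compared with sum-0 cells of the same library, from summed UMIs. A gene was measured with at least 20 CPM in either group and 50 UMIs over both, and it was counted as higher or lower when it passed 1.5-fold in that direction and its 95% counting interval excluded 1 in both libraries. No p-value was computed. Of 6922 genes, 946 (13.7%) were higher in members and 541 (7.82%) lower. Without mixed cells, 1009 of 6891 (14.6%) were higher and 580 (8.42%) lower, and 871 and 470 genes were counted both ways. The log2 ratio (of CPM + 1) over all genes had a median of 0.05 and 0.04. Of the 6922 genes, 717 were below 20 CPM in the sum-0 cells of at least 1 library and passed there through the members alone. Among the other 6205, 453 were higher and 541 lower. In cells with at least 10000 UMIs, where depth was closer, 921 genes were higher and 530 lower.

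Genes of mitosis were the furthest above sum-0 cells. Hmmr, a spindle assembly factor, stood at 350 CPM in members and 0.11 in sum-0 cells of the Fbn1 +/+ library and at 363 and 0.04 in the Fbn1 C1039G/+ library. Prc1, which bundles microtubules of the central spindle, was at 744 CPM against 1.024 and at 553 against 1.13. Ccnb2, a mitotic cyclin, was at 269 CPM against 0.26 and 300.4 against 0.45, and its partner kinase Cdk1 at 428 against 0.92 and 408 against 1.26. In single Fbn1 +/+ members Cdk1 ran from 0 through a median of 348 to 1357 CPM, and it was detected in 54 of 68, while in the Fbn1 C1039G/+ library it ran from 0 through 231 to 1975 and was detected in 60 of 77. Of 96 measured G2/M genes 94 were higher and 0 lower, with a median log2 ratio of 6.05 in the Fbn1 +/+ and 5.96 in the Fbn1 C1039G/+ library. Of these genes 81 were measured only through the members, and 13 of the other 15 were higher. This list is close to what chose the cells, so its count describes the choice.

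As a list, genes of DNA synthesis were higher by smaller ratios, and some of them had a level in sum-0 cells. Pcna, the sliding clamp of DNA polymerase, stood at 287 CPM in members against 48.7 in the Fbn1 +/+ library and at 231 against 45.8 in the Fbn1 C1039G/+ library. Mcm6, a subunit of the replicative helicase, was at 83.8 against 18.3 and at 66.1 against 19.01. Rrm2, the regulated subunit of ribonucleotide reductase, was at 132 against 2.79 and at 91.2 against 2.70, and it was detected in 44 of 68 and 47 of 77 members. Tk1, thymidine kinase, was at 131 against 0.24 and at 108 against 0.32. All 42 measured S phase genes were higher, with a median log2 ratio of 3.32 and 2.94, and 33 of them were measured only through members. The 9 that reached 20 CPM in sum-0 cells were higher too, with medians of 1.87 and 1.63.

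Histone genes that are transcribed for new chromatin divided the members. Hist1h1b, a linker histone, stood at 440 CPM against 0.67 in sum-0 cells of the Fbn1 +/+ library and at 295 against 0.54 in the Fbn1 C1039G/+ library. It was detected in 33 of 68 and 36 of 77 members, its median member level was 0, and its highest was 3388 and 3221 CPM. Of 10 measured replication-dependent histone genes, 7 were higher and 0 lower, all 7 of them measured only through members, and 0 of the 3 with a level in sum-0 cells were higher. Transcripts of these genes carry no poly(A) tail in dividing cells and are poorly captured by this kit. Brca1, of DNA repair, was at 38.5 CPM against 0.43 and 25.7 against 0.50. Of 10 measured DNA repair genes 8 were higher and 0 lower, but 7 of the 10, Brca1 among them, were measured only through members, and 2 of the other 3 were higher. Of 20 nucleotide synthesis genes 11 were higher and 0 lower, with 11 of the 20 measured only through members and 3 of the other 9 higher.

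Among cyclins and their kinases, 7 of 13 measured genes were higher and 1 was lower. Of the 13, 7 were measured only through members, and of the other 6, 1 was higher and 1 lower. The lower gene was Ccnd2, a D-type cyclin of G1, at 160.1 CPM in members against 354 in sum-0 cells of the Fbn1 +/+ library and at 186 against 403 in the Fbn1 C1039G/+ library. Its relative Ccnd1 was at 159 against 85.2 and at 205 against 144, and only the Fbn1 +/+ ratio passed 1.5-fold. Cdk4, the kinase these cyclins bind, was higher, at 201 against 108 and at 242 against 112. Ccne2, a cyclin of S phase entry, was at 53.6 against 1.35 and at 41.0 against 1.80. Foxm1, the factor that drives many G2/M promoters, was at 72.8 against 0.82 and at 56.3 against 0.62, and E2f1 at 35.1 against 3.65 and at 22.03 against 5.42. Of 10 measured genes in their list, of E2F and MuvB regulators, 6 were higher and 0 lower. Both named genes were among the 6 measured only through members, and 2 of the other 4 were higher.

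Of 14 measured genes that restrain the cell cycle, 5 were higher and 2 lower in members, against 13.7% and 7.82% of all genes. Of these, 3 were measured only through members, and 3 of the other 11 were higher. Cdkn2c, which encodes the Cdk4 and Cdk6 inhibitor p18, stood at 343 CPM against 32.5 in the Fbn1 +/+ library and at 249 against 31.6 in the Fbn1 C1039G/+ library, and Cdkn2d, for p19, at 201 against 25.7 and at 194 against 27.2. Rbl1, for the pocket protein p107, was at 43.3 against 3.23 and at 40.4 against 3.67, and Cdkn2a, a locus for p16 and p19ARF, was at 44.7 against 6.20 and at 52.0 against 14.1. Cdkn1a, which encodes the p53-responsive inhibitor p21, was at 428 against 195 (ratio 2.19, 2.02 to 2.38) and at 540 against 321 (1.68, 1.57 to 1.80). In single members Cdkn1a ran from 0 through a median of 311 to 3248 CPM in the Fbn1 +/+ and from 0 through 283 to 3380 in the Fbn1 C1039G/+ library. The lower genes were Gadd45g, at 48.1 against 113 and 28.1 against 52.9, and Cdkn2b, at 14.4 against 24.998 and 20.8 against 40.04. Cdkn1b, for p27, was at 93.5 against 95.02 and at 75.3 against 78.3. Of 12 measured p53 targets 2 were higher, Cdkn1a and Gdf15, and Sesn1 was lower. Gdf15 was measured only through members, and of the other 11, 1 was higher and 1 lower.

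Outside the lists of the cycle, DNA repair and nucleotide synthesis, 15 genes were named as the furthest above sum-0 cells. Those given with values here were under 1 CPM in sum-0 cells, so they were measured only through members. The roles named for them lie in the cell cycle, so their rank describes the choice of cells. Cdkn3, a phosphatase that acts on Cdk1 and Cdk2, was at 249 CPM against 0.43 in the Fbn1 +/+ and 277 against 0.33 in the Fbn1 C1039G/+ library. Pclaf, a partner of PCNA, was at 263 against 0.55 and 286 against 0.55, and it was detected in 45 of 68 and 57 of 77 members. Cenpm, a centromere protein, and Ska1, of the spindle and kinetochore complex, were at 152 and 76.3 CPM in Fbn1 +/+ members and at 135 and 81.4 in Fbn1 C1039G/+ members, with under 1 CPM in sum-0 cells. Sapcd2, a regulator of spindle orientation, had 62 and 68 UMIs in members and 0 in sum-0 cells, at least 1054-fold and 1055-fold higher with the sum-0 group set at a floor of 3 counts. The other genes of the 15 were Iqgap3, Neil3, Cip2a, Ube2t, Kifc1, Lockd, Mns1, Prr11, Kif18b and Fam83d, with mean log2 ratios between those of Cenpm and Fam83d.

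Lists of growth and metabolism had some higher genes, to be read against the 13.7% of all measured genes. Ran, the GTPase of nuclear transport and spindle assembly, stood at 911 CPM against 228 in the Fbn1 +/+ and 909 against 249 in the Fbn1 C1039G/+ library, and Nop58, of the small nucleolar ribonucleoproteins, at 104 against 38.1 and 110 against 38.5. They were 2 of the 5 higher among 25 measured ribosome biogenesis and Myc target genes, with 0 lower. Of 27 oxidative phosphorylation genes 3 were higher and 0 lower, and of 12 glycolysis genes 3 were higher and 2 lower. All measured genes of the ribosome biogenesis, oxidative phosphorylation and glycolysis lists reached 20 CPM in sum-0 cells. Of all genes that did, 453 of 6205 were higher. Hsp90aa1, an inducible chaperone, was higher at 847 CPM against 298 and 818 against 304, while 2 of 11 heat shock genes in all were higher. Of 76 measured cytosolic ribosomal protein genes, 0 were counted either way.

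**Figure D4:**
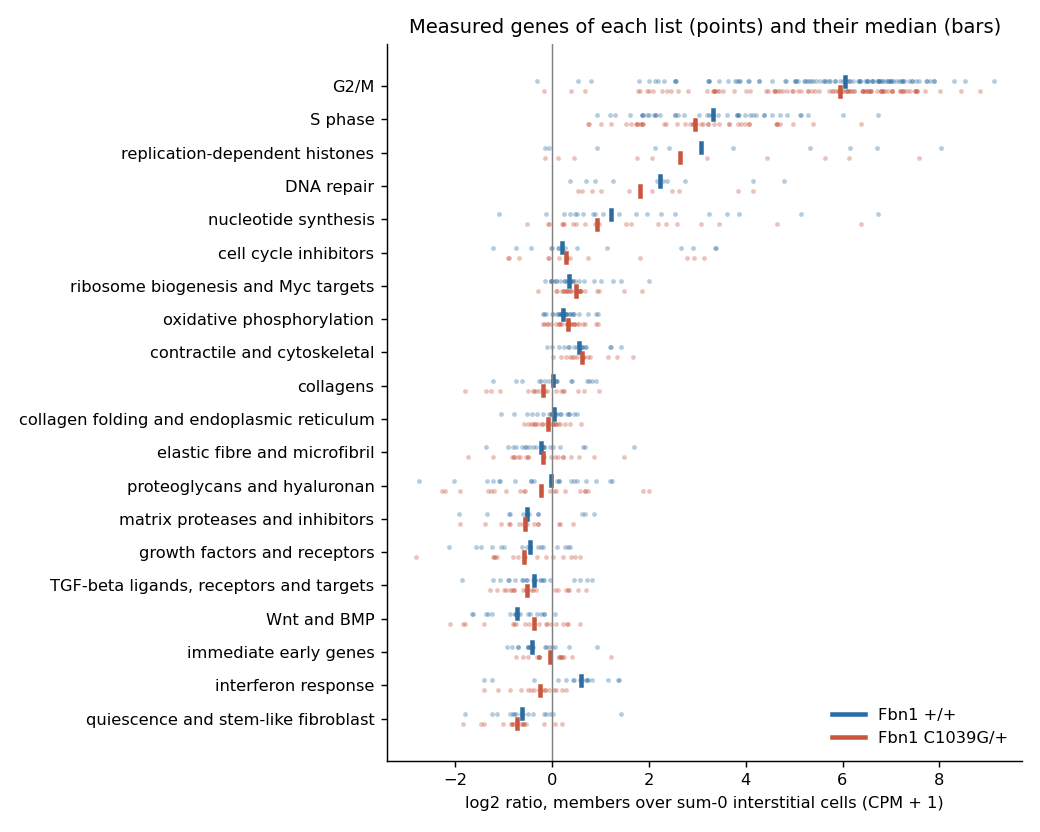
Log2 ratio of CPM + 1 in members over sum-0 cells (x axis) for each measured gene (points) of 20 gene lists (rows), with the list's median as a bar and the library as colour. The G2/M list has medians of 6.05 and 5.96, contractile genes have medians of 0.57 and 0.62 and the fibroblast quiescence list to the left, at -0.62 and -0.72.

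Part of a list of quiescent and stem-like fibroblast genes was lower in members. Mgp, matrix Gla protein, an inhibitor of calcification, stood at 4054 CPM in members against 14180 in sum-0 cells of the Fbn1 +/+ library and at 4942 against 13616 in the Fbn1 C1039G/+ library. Gsn, the actin-severing protein gelsolin, was at 5359 against 12662 and at 4291 against 11307. Both belong to this list, of which 8 of 16 measured genes were lower and 0 higher, against 7.82% of all genes lower. The summed list had a per-cell median of 15918 CPM in Fbn1 +/+ members against 34014 in sum-0 cells and of 13441 against 33207 in the Fbn1 C1039G/+ library. Without mixed cells 7 of 16 were lower.

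Proteoglycan genes went in both directions. Lum, lumican, a collagen-binding proteoglycan, was at 1073 CPM against 2716 in the Fbn1 +/+ library and at 1075 against 2577 in the Fbn1 C1039G/+ library, and Prg4, lubricin, at 1136 against 2383 and 873 against 1695. Of 21 measured proteoglycan and hyaluronan genes 7 were lower and 4 higher. The higher genes included Acan, aggrecan, at 30.9 against 12.5 and 45.9 against 10.7, and Hapln1, its link protein to hyaluronan, at 64.6 against 27.7 and 96.7 against 25.6. Acan was measured only through members, was detected in 17 of 68 and 9 of 77 of them, and had a median member level of 0. Of the other 20 genes 3 were higher and 7 lower. Vcan, versican, was at 581 against 783 and 685 against 1013, below 1.5-fold in both libraries. Per cell the summed list had a median of 18725 CPM in Fbn1 +/+ members against 31473, and of 19274 in Fbn1 C1039G/+ members against 32961.

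Fewer collagen and elastic fibre genes than proteoglycan genes were counted either way. Of 19 measured collagen genes that did not choose the cells, 2 were higher and 3 lower, against 13.7% and 7.82% of all genes. Their median log2 ratio was 0.03 and -0.18. Col4a1, a basement membrane collagen, was higher at 409 CPM against 217 and 436 against 221. Fbn1 itself (chromosome 2, 125300594 to 125507993) stood at 469 CPM in members against 418 in the Fbn1 +/+ and 447 against 453 in the Fbn1 C1039G/+ library. The 3′ counts do not tell the C1039G allele from the other. Fn1, fibronectin, was the 1 higher of 21 elastic fibre and microfibril genes, at 264 CPM against 81.5 and 570.2 against 203, and 4 of the 21 were lower. In both lists the share of lower genes was above the 7.82% of all genes.

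Some genes of the actin cytoskeleton were higher. Acta2, smooth muscle alpha-actin, stood at 653 CPM against 282 in the Fbn1 +/+ library and at 836 against 327 in the Fbn1 C1039G/+ library, and Tpm2, beta-tropomyosin, at 292 against 108 and 429 against 134. Of 16 measured contractile and cytoskeletal genes 6 were higher and 0 lower, also without mixed cells, against 13.7% of all genes higher. Mural cells carry Acta2 too, and at least 5 mural marker UMIs were found in 14.7% and 20.8% of members and 15.9% and 16.7% of sum-0 cells. Of the 6 genes of the mural list 3 were measured. Kcnj8 and Abcc9 were lower in members (6.87 CPM against 31.1 and 7.95 against 23.6, and 31.6 against 53.9 and 11.6 against 36.7). Rgs5 was at 106 against 144 and 61.8 against 171, and only the Fbn1 C1039G/+ ratio passed 1.5-fold. Without mixed cells 4 of the list were measured, of which 1 was higher and 2 lower. Myh11 was at or under 3.06 CPM in both groups of both libraries. Tagln, transgelin, was at 465 against 422 in the Fbn1 +/+ library and at 953 against 566 in the Fbn1 C1039G/+ library, so only the latter passed 1.5-fold. The mural limit is a fixed UMI count, and members were deeper than sum-0 cells. The part of mural cells in these values was not tested.

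In the signalling lists more genes were lower than higher, and their counts stand beside the 7.82% of all genes that were lower. Of 17 measured growth factors and receptors 6 were lower and 0 higher, among them Igf1, insulin-like growth factor 1, at 335 CPM against 792 and 288 against 656, and Pdgfrb, a receptor for platelet-derived growth factor, at 88.6 against 185 and 99.7 against 163. Of 19 Wnt and BMP genes 7 were lower and 0 higher. Wif1, a secreted inhibitor of Wnt ligands, was at 313 against 976 and 202 against 726, and Rspo3, a secreted enhancer of Wnt signalling, at 47.4 against 123 and 18.97 against 84.8. Of 22 TGF-beta ligands, receptors and targets 5 were lower and 1 higher. The higher gene was the ligand Tgfb1, at 79.7 against 44.2 and 84.4 against 51.8. Ccn2, a matricellular target, was among the lower genes, at 138 against 501 and 360 against 721. Of 18 transcription factors of the leaflet 1 was higher, measured only through members, and 2 were lower, a share near that of all genes. The lower genes were Meox1, at 148 against 420 and 130 against 477, and Tbx20, at 498 against 874 and 645 against 1041.

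In the endoplasmic reticulum, immediate early and interferon lists the counts of lower genes were 1 or 2, a share near the 7.82% of all genes. Of 14 matrix proteases and inhibitors 4 were lower and 0 higher, among them Htra3, at 91.4 CPM against 347 and 59.96 against 228, and Mmp2, gelatinase A, at 438 against 812 and 485 against 1012. Of 21 collagen folding and endoplasmic reticulum genes 1 was lower, Xbp1, at 66.7 against 139 and 94.8 against 142. Of 17 immediate early genes 2 were lower, Fos, at 773 against 1364 and 335 against 512, and Jund, at 1028 against 1677 and 898 against 1505. Of 16 interferon response genes 2 were lower, Ifit1, at 26.1 against 70.6 and 31.2 against 69.3, and Ifit3, at 43.3 against 103 and 48.9 against 132. Per cell, the summed interferon list had a higher median in members than in sum-0 cells, 1882 against 725 CPM in the Fbn1 +/+ and 1820 against 980 in the Fbn1 C1039G/+ library. The highest sum-0 cells reached 37984 and 44159 CPM and the highest members 11152 and 10999, so the sums and the medians rank the groups differently in the Fbn1 C1039G/+ library (2236 CPM in members against 2436).

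The genes furthest below sum-0 cells included haemoglobin and marker genes of rare states. Hbb-bs, adult beta-globin, was at 20.6 CPM in members against 698 in the Fbn1 +/+ and 22.03 against 345 in the Fbn1 C1039G/+ library. Few sum-0 cells carried this level. The 1% of them with the most Hbb-bs UMIs (70 and 71 cells) held 96.2% and 92.9% of these UMIs, so the ratio rests on those cells. The same holds in part for Bglap2, an osteocalcin gene, at 3.44 CPM against 153 and 2.45 against 72.1, where they held 48.9% and 69.6%. Ogn, osteoglycin, was at 40.5 against 276 and 44.7 against 220.1, Angptl7 at 22.7 against 149.9 and 28.1 against 153, and Myoc, myocilin, at 28.2 against 205 and 28.1 against 109. Chad, a cartilage matrix protein, was at 35.1 against 146 and 17.1 against 83.5. Cyp2e1 was at 26.1 against 95.01 and 5.51 against 62.1, and the top 1% of cells held 15.0% and 18.7% of its sum-0 UMIs.

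Markers of some interstitial states were found in a smaller share of members than of sum-0 cells, and those of others were not. States were scored as at least 2 UMIs of their marker genes in cells thinned to 5000 UMIs. The Rspo3 and Angpt1 state was scored in 8.82% (3.31 to 18.2) of Fbn1 +/+ members against 24.2% of sum-0 cells, and in 5.33% (1.47 to 13.1) against 18.6% in the Fbn1 C1039G/+ library. The Cspg4 and Tesc state was scored in 1.47% (0.0372 to 7.92) against 10.9% and in 2.67% (0.325 to 9.30) against 10.9%. The Prss35 and versican state was scored in most members, 66.2% against 72.0% and 73.3% against 74.7%. The C3 state was scored in 17.6% (9.46 to 28.8) against 28.7% and in 8% (2.99 to 16.6) against 21.7%, and without mixed cells in 12.5% and 8.06% of members. The cartilage-type state was scored in 45.6% (33.5 to 58.1) against 42.9% in the Fbn1 +/+ library and in 30.7% (20.5 to 42.4) against 44.9% in the Fbn1 C1039G/+ library. The Bglap2 and Nrgn state (7.35% against 10.8% and 9.33% against 5.64%), the Mmp3 and Svep1 state (7.35% against 11.3% and 14.7% against 12.6%) and the interferon state (13.2% against 10.9% and 6.67% against 15.1%) also lay on different sides of the sum-0 share in the 2 libraries. The Notch3 state was scored in a larger share of members in both, 4.41% (0.919 to 12.4) against 1.84% and 2.67% (0.325 to 9.30) against 1.19%, with intervals that include the sum-0 share. Lower markers in dividing cells would also give low shares, and this cannot be told apart from fewer dividing cells of a state.

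Notch3, a receptor of mural cells and of a small interstitial state, was the state marker that was higher in members. It was below 20 CPM in sum-0 cells and so was measured only through members. It stood at 37.1 CPM against 16.5 in the Fbn1 +/+ library (ratio 2.25, 1.68 to 2.96) and at 46.5 against 12.2 in the Fbn1 C1039G/+ library (3.82, 2.98 to 4.83). It had a UMI in 19.1% and 23.4% of members, and after thinning in 7 of 68 (10.3%, 4.24 to 20.1) and 10 of 75 (13.3%, 6.58 to 23.1), against 5.16% and 4.07% of sum-0 cells. The thinned Fbn1 +/+ interval includes the sum-0 share.

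Genes of antigen presentation were higher in members only while the mixed cells were counted. Cd74, the invariant chain of MHC class II, stood at 1575 CPM in Fbn1 +/+ members against 178 and at 1019 against 141 in the Fbn1 C1039G/+ library, and without mixed cells its log2 ratio was -0.22 and -0.18. H2-Aa, an MHC class II chain, had log2 ratios of 2.90 and 2.71 with mixed cells and -0.91 and -1.26 without. The leukocyte genes Tyrobp and Ptprc had ratios of 3.15 and 2.46, and of 2.86 and 3.15, and without mixed cells these were -1.18 and -0.64, and -0.82 and -0.65. Mixed cells were defined partly by these genes, so the change follows from their removal.

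The members of the 2 libraries were then compared with each other. Of 7063 measured genes, 274 (3.88%) were at least 1.5-fold higher and 280 (3.96%) lower in Fbn1 C1039G/+ members. Without mixed cells 185 of 6503 (2.84%) were higher and 268 (4.12%) lower, and only 116 and 167 genes were counted in the same direction both ways, 42.3% and 59.6% of the first counts. With 1 library a genotype, no difference below can be told apart from differences between pools, mice or preparations. The values of the sum-0 cells of the same libraries are set beside those of the genes and lists described, and a difference that they share is not particular to members.

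The largest differences by the naming rule were endothelial and chemokine genes, and they rested on few cells. Egfl7, an endothelial matrix protein, was at 1.37 CPM in Fbn1 +/+ and 165 in Fbn1 C1039G/+ members, and without mixed cells at 1.78 and 4.61, with 17.7 and 34.5 in sum-0 cells. Flt1, a VEGF receptor, had 0 and 79 UMIs, at least 23.4-fold higher in the Fbn1 C1039G/+ library, and Cdh5, endothelial cadherin, had 0 and 63 UMIs, at least 18.7-fold. In sum-0 cells Flt1 was at 7.02 and 12.6 CPM and Cdh5 at 2.81 and 6.38. Without mixed cells Cdh5 was at 0 in both. Egfl7 and Cdh5 are among the markers that define mixed cells, so their fall follows from the removal. Emcn, Lrg1 and Pkhd1l1 were at least 15.7-, 15.1- and 15.1-fold higher, and of their UMIs 69.8%, 94.1% and 78.4% came from 3 cells. In sum-0 cells their log2 ratios were 0.92, 0.61 and 0.70. Igf2 and Nts had 98.5% and 96.4% of theirs in 3 cells, and both were at 0 CPM in the Fbn1 C1039G/+ library without mixed cells. Gzma, a protease of cytotoxic lymphocytes, had its 92 Fbn1 +/+ UMIs in 1 cell and 0 in Fbn1 C1039G/+ members, at least 34.4-fold higher in the Fbn1 +/+ library, and was at 0.63 and 1.38 CPM in sum-0 cells. Lcn2 and Ccl17 were at 0 and 0.89 CPM in Fbn1 +/+ members without mixed cells.

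Chemokines that interferon gamma induces marked a few Fbn1 +/+ members. Cxcl10 stood at 558 CPM in Fbn1 +/+ and 20.2 in Fbn1 C1039G/+ members, with 662 and 20.7 without mixed cells and 43.3 and 21.9 in sum-0 cells. Cxcl9 was at 502 and 0.61 CPM, and at 43.5 and 0.77 without mixed cells, with 16.0 and 2.64 in sum-0 cells. Summed with Gbp5 and Iigp1, 2 interferon-induced GTPases, these transcripts gave 1981 UMIs in Fbn1 +/+ members, of which 868, 589 and 216 came from 3 cells (84.5%). They gave 148 UMIs in Fbn1 C1039G/+ members, with 14, 13 and 11 in the 3 highest cells. At least 10 UMIs were found in 12 of 68 and 3 of 77 members, of which 4 and 2 were mixed cells. Cxcl1, a neutrophil chemokine, was at 87.3 and 6.12 CPM in members and at 47.2 and 10.9 in sum-0 cells, and Ccl5 at 289 and 26.3 in members, or 59.5 and 16.9 without mixed cells, and at 19.9 and 21.98 in sum-0 cells. Ccl2, a monocyte chemokine, was at 295 and 53.8 CPM in members and 14.1 and 12.9 in sum-0 cells, with 91.9% of the Fbn1 +/+ UMIs in 3 cells, and without the 3 highest cells of each library its log2 ratio moved from -2.43 to -0.79.

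Many immediate early genes were lower in Fbn1 C1039G/+ members, and the list's median was below 0 in sum-0 cells of that library as well. These genes respond within minutes to stimuli, tissue digestion among them. Of 19 measured, 10 were lower and 0 higher, with a median log2 ratio of -0.73 in members and -0.95 in sum-0 cells, and 10 of 18 were lower without mixed cells. Fos was at 773 and 335 CPM, a log2 ratio of -1.20 against -1.41 in sum-0 cells. Zfp36, which destabilises inflammatory mRNAs, was at 160.1 and 64.9 CPM (-1.29 against -1.59). Gadd45b, a stress response gene, was at 161 and 35.5 CPM (-2.15 against -2.26). Klf6 was at 227 and 130 CPM (-0.81), while in sum-0 cells it was at 118 CPM in both.

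The interferon response list had medians of opposite sign in members and sum-0 cells. Of 16 measured, 6 were lower in Fbn1 C1039G/+ members and 0 higher, against 3.96% of all genes lower, with a median log2 ratio of -0.35, while the list's median in sum-0 cells was 0.28. Gbp2 was at 69.4 and 25.7 CPM in members, a log2 ratio of -1.40 against 0.19 in sum-0 cells. Bst2, tetherin, was at 506 and 420.3 CPM (-0.27), against a ratio of 1.09 in sum-0 cells, and Isg15 at 145 and 176 (0.27 against 1.10). Without mixed cells the list's median was -0.61, over 13 measured genes. The per-cell medians of the summed list were close in members of the 2 libraries, 1882 and 1820 CPM (1752 and 1279 without mixed cells). The difference between the cell groups was not tested, since 1 library a genotype leaves no replicate.

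A few S phase genes were lower in Fbn1 C1039G/+ members. Of 48 measured, 5 were lower and 0 higher, with a median log2 ratio of -0.33 against 0.01 over all genes and -0.01 for the 10 S phase genes measured in sum-0 cells, and 10 of 48 were lower without mixed cells. The threshold that chose members left out 61 cells rich in S phase genes in the Fbn1 C1039G/+ and 25 in the Fbn1 +/+ library, and the part of this in the lower values was not tested. Cdc45, a factor of the replicative helicase, was at 46.0 and 23.9 CPM (-0.92, against -0.14 in sum-0 cells), and Cdt1, a licensing factor, at 27.5 and 15.3 (-0.81 against 0.12). Pold3 and E2f8 were also lower, at 50.2 and 30.0 CPM and at 37.1 and 22.03 CPM, with log2 ratios of -0.13 and -0.002 in sum-0 cells. The G2/M list had 3 of 96 genes lower, Ect2, Ncaph and Ncapg2, a share below the 3.96% of all genes, and a median of -0.18 against 0.03 in sum-0 cells. Its per-cell median was 29021 CPM in Fbn1 +/+ and 23301 in Fbn1 C1039G/+ members, between 2640 and 59241 and between 841 and 56930, so the 2 ranges overlapped nearly in full. Among female members (15 and 37 cells) 9 of 27 measured S phase genes were lower and 1 was higher (median -0.55). Over all 3601 genes measured in female members the median was 0.07, and 60.8% of the genes called were higher. The count of all genes lower in female members is given in the last section. Among male members (35 and 27 cells) 2 of 38 S phase genes were lower, with a median of -0.07 against 0.005 over 4264 genes. This share is near the 3.96% of all genes lower in all members. Of the genes called in male members 45.1% were higher. The difference between the sexes was not tested.

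**Figure D5:**
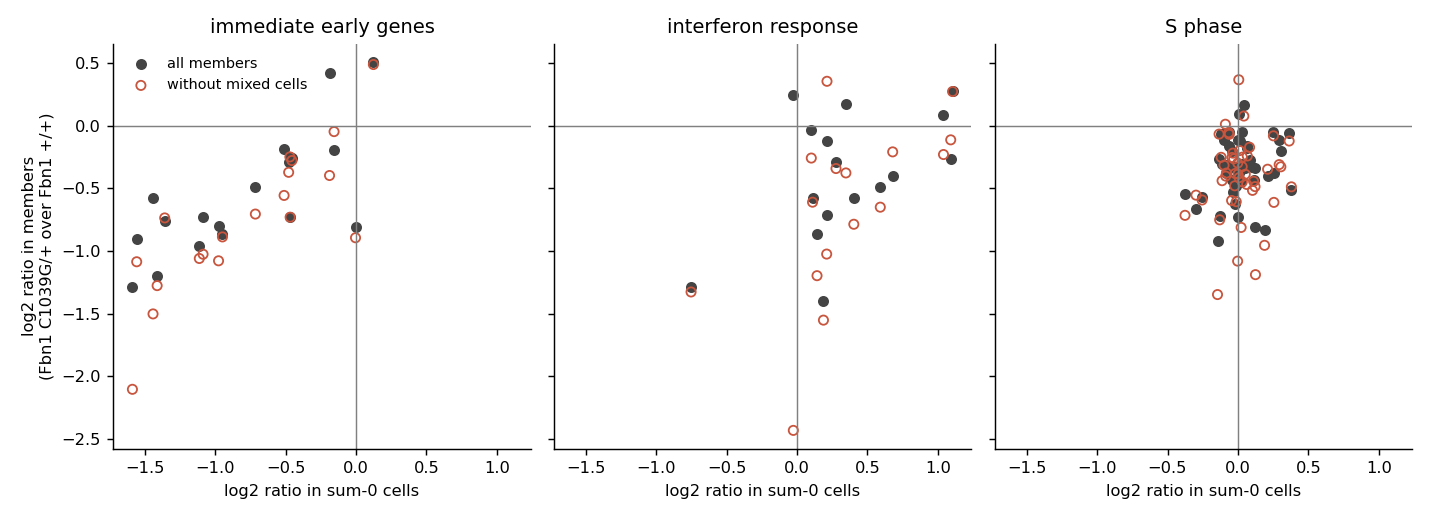
Log2 ratio of Fbn1 C1039G/+ over Fbn1 +/+ in members (y axis) against the same ratio in sum-0 cells (x axis) for measured genes of 3 lists, for all members (filled) and without mixed cells (open). Immediate early genes lie low on both axes, while most interferon response genes lie to the right of 0 and below 0, with medians of 0.28 in sum-0 cells and -0.35 in members.

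Matrix genes went in both directions between the libraries. Of 21 elastic fibre and microfibril genes 4 were higher and 3 lower in Fbn1 C1039G/+ members, of 19 collagens 0 and 3, of 21 proteoglycan and hyaluronan genes 0 and 2, and of 14 proteases and inhibitors 0 and 2. Without mixed cells these counts were 2 and 0, 0 and 1, 2 and 0, and 0 and 3. Over all genes, 3.88% were higher and 3.96% lower, or 2.84% and 4.12% without mixed cells. In the same order, the lists' median log2 ratios were 0.05, -0.12, 0.002 and 0.07 in members. In sum-0 cells they were 0.11, 0.19, 0.07 and 0.15, so the collagen median differed in sign (-0.01 in members without mixed cells). Ccn2 was at 138 CPM in Fbn1 +/+ and 360 in Fbn1 C1039G/+ members (log2 ratio 1.37, and 1.68 without mixed cells), against 0.53 in sum-0 cells. It was detected in 41 of 68 and 55 of 77 members, and without the 3 highest cells of each library its log2 ratio was 1.33. Tgfb2, a TGF-beta ligand, was at 91.4 and 161 CPM (0.81 against 0.14), and Inhba, an activin subunit, at 21.3 and 50.2 (1.20 against 0.62). Fst, the activin antagonist follistatin, was at 25.4 and 79.5 CPM (1.61 against 1.39). Eln, tropoelastin, was at 181 and 485 CPM (1.41 against 0.16), but 62.8% of its Fbn1 C1039G/+ UMIs came from 3 cells, and without the 3 highest cells of each library the ratio was 0.44. Fbn2, fibrillin-2, was at 29.6 and 64.2 CPM (1.09 against 0.36), and 1.10 without the 3 highest cells. Fbn1 was at 469 and 447 CPM (ratio 0.952, 0.856 to 1.06).

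Of the TGF-beta list, 4 of 22 measured genes were higher and 1 lower, Ltbp2, at 168 and 106 CPM in members and 196 and 184 in sum-0 cells, and without mixed cells 3 were higher and 0 lower. Of the Wnt and BMP list, 5 of 19 were higher, Bmp2, Id1, Id2, Smad6 and Msx1, and 2 lower, Rspo3 and Wif1, while without mixed cells 4 were higher and 4 lower. Over all genes 3.88% were higher and 3.96% lower. The TGF-beta list had a median log2 ratio of 0.09 in members and 0.11 in sum-0 cells, and the Wnt and BMP list 0.30 and -0.05. Smad6, an inhibitor of BMP signalling, was at 20.6 and 53.8 CPM (1.34, and 0.82 without mixed cells, against 0.38 in sum-0 cells). Id2, a target of BMP signals, was at 85.2 and 134 CPM (0.65 against -0.39). Tagln was at 465 and 953 CPM in members and 422 and 566 in sum-0 cells, the 1 higher of 16 contractile and cytoskeletal genes. Without mixed cells the genes with the largest ratios were Ociad2, at 12.4 and 59.9 CPM, Fhl2, at 7.99 and 36.9, Ctla2a, at 8.88 and 38.4, then Ccn2, Igfbp3, Ank, Fst and Eln, a set named after its values were seen. In sum-0 cells Ociad2 was at 31.3 and 64.6 CPM, Fhl2 at 27.8 and 42.8, and Ctla2a at 17.4 and 30.9. Igfbp3, a carrier of insulin-like growth factors, turned with the mixed cells, from 102 and 46.5 CPM in all members to 14.2 and 46.9 without them, and it was at 140.1 and 82.0 in sum-0 cells.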

How the data were processed

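Droplet 3′ RNA counts of mitral valve cells were analysed, 1 library per genotype (Fbn1 +/+, 5 pooled mice; Fbn1 C1039G/+, 3 pooled mice). The deposited values are whole-number UMI counts per gene and barcode, not normalised. The authors used Cell Ranger with mm10, version 3.1.0 per the submitters' processing notes and 5.0.1 per the file headers. Removal of free RNA is not given in the sources used here. The members, gene lists and tests were chosen with earlier results of these data known.

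Barcodes were kept with at least 1000 UMIs, 500 genes and at most 20% mitochondrial UMIs, 9190 of 9509 and 9440 of 9744. Scrublet scores (scanpy 1.11.5) marked the highest 8.31% and 7.97% of barcodes as predicted doublets, about the expected rate of 0.8% per 1000 barcodes, because the automatic threshold called 0% and 0.0106%. Predicted doublets stayed in the main results, and leaving them out was an alternative. UMIs were summed per library and cell group and scaled to CPM, and log2 ratios used a pseudocount of 1 CPM. Ratios have exact conditional binomial, shares Clopper-Pearson and differences of shares Newcombe intervals at 95%. No p-value or count model was used, as 1 library per genotype leaves no replicate, and the calling script was tested on simulated counts. The 4 cycle, 4 collagen and decorin and 3 C1q genes were left out of the genes compared. TMM scaling (edgeR 4.0.16), thinning to 5000 UMIs, other filters and other cell choices were tried as alternatives. 

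Named genes were the 10 largest and 20 smallest mean ratios of members over sum-0 cells, the 15 largest outside the cycle, repair and nucleotide lists, the 8 largest and 8 smallest between libraries, up to 6 per list, members of the cycle, arrest, state and cell type lists, and Fbn1, of which the text gives a part. Mitochondrial, ribosomal protein, immunoglobulin, receptor and unnamed gene models were left out of the ranked sets. Of the 52 lists the text gives those with a result on members. Genes were placed with GENCODE M21 on mm10 by identifier (32235 of 32285). Promoter sequences are from RefSeq, GRCm38.p6.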

Additional observations from a re-analysis of the deposited data

Results flagged for a closer look

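The member share differed between the libraries in female cells, while the interval of the male difference spanned both directions. Among female interstitial cells it was 0.563 points higher in the Fbn1 C1039G/+ library (0.429% and 0.992%, interval 0.174 to 0.971), and among male cells the difference was -0.194 points (1.12% and 0.925%, -0.714 to 0.328). The difference between the sexes was not tested, and 1 sex of the Fbn1 C1039G/+ pool came from a single mouse. Female cells made up 22.1% of Fbn1 +/+ members and 48.1% of Fbn1 C1039G/+ members, against 46.8% and 48.4% of sum-0 cells. Cells that could not be assigned a sex made up 26.5% and 16.9% of members, against 11.6% and 13.2% of sum-0 cells. The female share of Fbn1 +/+ members thus depends on the sex of the unassigned ones.

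The interferon response list had a median log2 ratio of -0.348 between the libraries (Fbn1 C1039G/+ over Fbn1 +/+) in members and of 0.277 in sum-0 cells, opposite in sign, and the difference was not tested.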

How the results depend on the processing

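No paired analysis was possible because each genotype has 1 library. The member share differed with the collagen and decorin limit: at 2% of UMIs it was 0.634% and 0.617%, and the difference turned to -0.0164 points. The S phase share in Fbn1 C1039G/+ members fell to 5.13% without members that held 2 or more markers of another cell type. Of genes against sum-0 cells, 322 were lower after thinning to 5000 UMIs, 1536 were higher with no CPM filter, and 296 were higher and 166 lower with a filter of 100 CPM. Between the libraries, thinning left 81 higher and 87 lower genes, the mean of per-cell CPM gave 428 lower, no filter gave 441 and 427, a filter of 100 CPM gave 33 and 48, female members gave 159 lower, male members gave 178 higher, and leaving out members with 2 or more markers of another type gave 113 and 133. Fewer genes were measured under the filter of 100 CPM (1872 and 1931) and, between the libraries, after thinning (2582), while thinning left 6843 genes measured against sum-0 cells; the cause of the other shifts was not tested. Between members of the 2 libraries the log2 ratio reversed for Ccl17 in female members (2.92), Cxcl9 without members with 2 or more markers (1.62), Igf2 in the same setting (-1.82) and without mixed cells (-0.92), and Nts without mixed cells (-0.92). Igfbp3, which was recomputed in that last setting alone, turned from -1.11 to 1.65. Of the shares, S phase medians and counts of genes, the other 64 values kept their direction and stayed within 1.5 times of the main count or within counting error. For named genes, 473 ratios of members over sum-0 cells were the same and 11 moved, while 122 between the libraries were the same, 65 moved and 5 reversed. TMM scaling put 46.6% of the genes called between the libraries on the higher side, against 49.5%. Member numbers of 68 and 77 limit shares to about the widths given, and genes under 20 CPM were not compared.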
